A study of Mus musculus with 22 samples.

Results

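Transcripts of 40 genes of late G2 phase and mitosis were followed in 22 mouse livers, out of 18716 rows in a deposited table of RPKM values (reads per kilobase of transcript per unit of sequenced reads, a level scaled to gene length). The members were given as a list of gene symbols, and all 40 were found by symbol. Every liver carries the genotype label Fah-/-, which means that both copies of the gene for fumarylacetoacetate hydrolase, the enzyme of the final step of tyrosine breakdown, are disrupted. The 7 livers of the D0 group are labelled as day 0 and as normal liver. In the other groups, mice had been transplanted with hepatocytes labelled td, and NTBC, an inhibitor of the upstream enzyme Hpd that protects livers without Fah, had been withdrawn. From that withdrawal on, vehicle (8 libraries) or an agent labelled YC (7 libraries) was given for 28 days. What td and YC stand for, the cells' donor, the strain, the age and the part of each liver that was sampled are not stated in the sources used here. Nothing in the labels ties each library to a separate animal, so the p-values measure the spread between these livers, which may be partly technical. In whole liver, fewer dividing cells and less transcript per dividing cell cannot be told apart, nor can host cells and transplanted cells.

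Genes of mitosis are switched on late in the cell cycle. In resting cells a core of MuvB proteins with a pocket protein holds many of them off, and in cycling cells the same core joins B-Myb and then Foxm1 and drives them. Many of their promoters share a CHR element and CCAAT boxes, the latter read by the factor NF-Y. The adult liver is mostly at rest and returns to division after loss of tissue, and mouse hepatocytes can also copy their DNA without completing division, which leaves cells with several genomes or with a pair of nuclei.

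The letters of these elements were searched on both strands in RefSeq promoter windows of 300 bases (build GRCm38.p6, 250 bases before to 50 bases after a start), which exist for 35 of the 40 members. The motifs were TTTGAA and TTCGAA for the CHR and CCAAT for the box, and matches of different motifs could share an end base. TTTGAA was found for 25 of the 35 members (71.4%), against 14.5% of the 9677 tested genes that have a window and 20.2% of all 27025 genes that have one. TTCGAA was found for 4 members (11.4%, against 2.44% and 1.8%), and CCAAT for 27 (77.1%, against 42.7% and 41.1%). Both kinds of element were found for 24 members (68.6%, against 6.83% and 8.61%), and at least 2 CCAAT boxes for 19 (54.3%, against 16.2% and 13.3%). A match is a run of letters and does not show that a factor binds there. Tpx2, Ccna2, Aurkb, Foxm1 and Kif20a had no window.

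Promoter stretches of 4 members are printed as examples, chosen after the values were seen. Ect2, Psrc1 and Gtse1 are the members whose higher level in YC livers was called in every fit run, and Cdk1 is 1 of the 4 lower members, though the calls of Ccnb1 and Cdca3 held in more fits than its own. Each is read 5′ to 3′ on the strand of its gene from the 150 bases before a RefSeq start, without bases that lie in a GENCODE exon. Capitals mark both forms of the CHR and the box, which reads ATTGG on the other strand.
Cdk1, chr10:69352939-69353062, minus strand: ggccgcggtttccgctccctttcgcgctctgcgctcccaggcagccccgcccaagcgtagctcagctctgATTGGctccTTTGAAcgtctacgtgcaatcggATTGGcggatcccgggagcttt
Ect2, chr3:27153879-27154025, minus strand: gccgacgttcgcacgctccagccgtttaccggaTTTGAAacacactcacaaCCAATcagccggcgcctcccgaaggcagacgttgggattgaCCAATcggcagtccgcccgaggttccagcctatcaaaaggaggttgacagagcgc
Psrc1, chr3:108383742-108383837, plus strand: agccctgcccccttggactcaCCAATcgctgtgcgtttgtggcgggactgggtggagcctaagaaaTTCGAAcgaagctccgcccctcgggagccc
Gtse1, chr15:85859557-85859706, plus strand: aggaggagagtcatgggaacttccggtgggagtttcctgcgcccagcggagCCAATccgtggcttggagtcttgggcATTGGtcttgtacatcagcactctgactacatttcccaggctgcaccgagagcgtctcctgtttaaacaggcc
The Cdk1 stretch held 1 TTTGAA between 2 CCAAT boxes, and that of Ect2 held 1 TTTGAA ahead of 2 boxes. Psrc1 held 1 box and the variant TTCGAA. Gtse1 held 2 boxes and neither form of the CHR letters, in the stretch or in its whole windows. Outside the printed stretch, the window of Cdk1 also held a TTTGAA 15 bases and a box 208 bases before the start. That of Ect2 also held a box and a TTTGAA, 1 and 39 bases after the start. Another window of Psrc1 held a further box, 241 bases before its own start.

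The libraries were estimated at 50300000 to 82600000 reads or fragments. The level of Fah and of Y-linked transcripts set some libraries apart. Fah lay between 21.1 and 38.7 RPKM in D0 livers and between 271 and 542 RPKM in vehicle livers. In YC livers 1 to 7 it was 105, 128, 290, 407, 291, 41.3 and 31.5 RPKM. The library labelled YC 7 was thus inside the D0 range, and the library labelled YC 6 was just above it. Y-linked transcripts summed to at least 1 RPKM in 0 of 7 D0 livers, 8 of 8 vehicle livers and 3 of 7 YC livers (YC 1, YC 2 and YC 3), so that their presence and the difference between vehicle and D0 livers cannot be told apart. Counts of the mitosis genes between YC and vehicle livers are given below also without these YC livers.

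At day 0 the mitosis genes were low. The mean of a member over the 7 D0 livers ranged from 0.0345 RPKM (Bub1) to 3.86 RPKM (Aurka), with a median of 0.363 RPKM, and no value was listed at 0. In 19 of the 40 members no D0 liver reached 0.5 RPKM, and in 8 all D0 livers did. The median member mean was 2.31 RPKM in vehicle livers and 2.36 RPKM in YC livers. The filter for testing, at least 0.5 RPKM in at least 7 libraries, kept 36 members and left out Cenpe, Cenpf, Bub1 and Kif20a. Of the 36, 15 had no D0 liver at 0.5 RPKM and passed through the other groups alone, so the counts against D0 below are given also without the filter. Whether reads were counted by strand is not stated in the sources used here, so values are less certain for the 11 members whose exons overlap another annotated gene: Foxm1, Ccna2, Plk1, Top2a, Cdca8, Kif4, Nusap1, Cdc20, Ube2c, Prc1 and Kif20a.

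**Figure D1:**
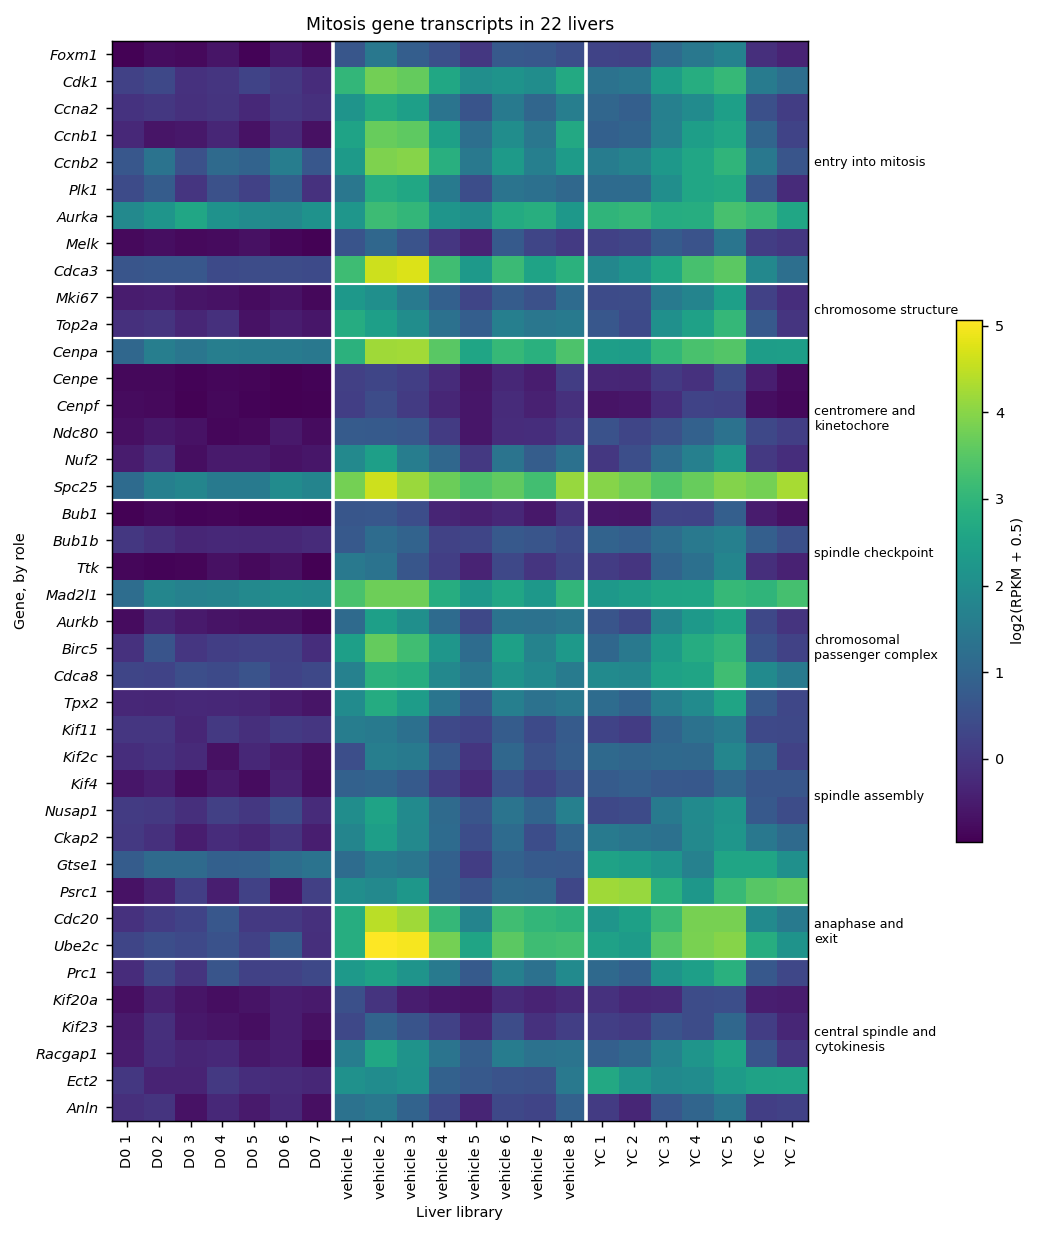
Level of the 40 mitosis genes (rows, by role) in the 22 livers (columns) as log2(RPKM + 0.5), with white lines between groups and roles. The D0 columns are dark for most genes, vehicle 2 and vehicle 3 are the brightest vehicle columns, and YC 3, YC 4 and YC 5 are brighter than the other YC livers for most rows but not for Psrc1, Gtse1, Ect2 and Spc25.

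The change from day 0 in livers given vehicle was examined first. Mitosis genes of every role were higher in vehicle than in D0 livers. Of the 36 tested members 35 rose and none fell (limma on log2(RPKM + 0.5), Benjamini-Hochberg adjusted p under 0.05 over 12537 genes), where 28.2% of all genes tested were called higher and 29.9% lower. None fell at an unadjusted p under 0.05 either. The median log2 fold change of the members was 1.53, against 0.00 over all genes. Without the filter 38 of all 40 members were called higher, against 20.8% of all rows. For 29 members the lowest vehicle liver lay above the highest D0 liver, which held for 11.2% of all genes tested. The exceptions were Ccnb2, Plk1, Aurka, Ndc80, Kif23 and Anln, whose groups overlapped although they were called, and Gtse1, which was not called. Without the filter the groups did not overlap for 32 of all 40 members, and the share over all rows was not computed.

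In livers given YC, 36 of 36 tested members rose over D0 and none fell, also none at an unadjusted p under 0.05 in limma, where 41.2% of all genes tested were called higher and 12.3% lower. The median was 1.38, against 0.25 over all genes. Without the filter 39 of 40 members were called, against 34.8% of all rows. For 29 members the groups did not overlap (19.4% of all genes tested), and the 7 that overlapped were Ccnb2, Plk1, Birc5, Nusap1, Prc1, Kif23 and Anln. Without the filter there was no overlap for 31 of all 40 members, again with no share computed over all rows. Called members numbered 34 (median-ratio scaling) and 29 (quantile normalization), where 25.8% and 23.3% of all genes were called higher. Both comparisons use the same D0 livers, and their values are therefore set side by side and not counted as separate support.

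The comparison of YC with vehicle livers bears on the series' question of whether YC stimulated growth of the transplanted cells. Here most mitosis genes were not called, and those called went both ways. Of the 36 tested members 5 were called higher in YC livers (Psrc1, Gtse1, Ect2, Bub1b and Aurka) and 4 lower (Ccnb1, Cdca3, Cdk1 and Cenpa). The other 27 did not pass the test. Of all genes tested 44.6% were called higher and 6.14% lower. The median of the members was -0.22, against 0.31 over all genes. Median-ratio scaling moved the median over all genes to 0.01 and that of the members to -0.44, with 3 members called higher (18.2% of all genes) and 9 lower (16.7%). With quantile normalization 3 members were higher (18.0%) and 12 lower (16.8%). The 3 were Psrc1, Gtse1 and Ect2 under both scalings.

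**Figure D2:**
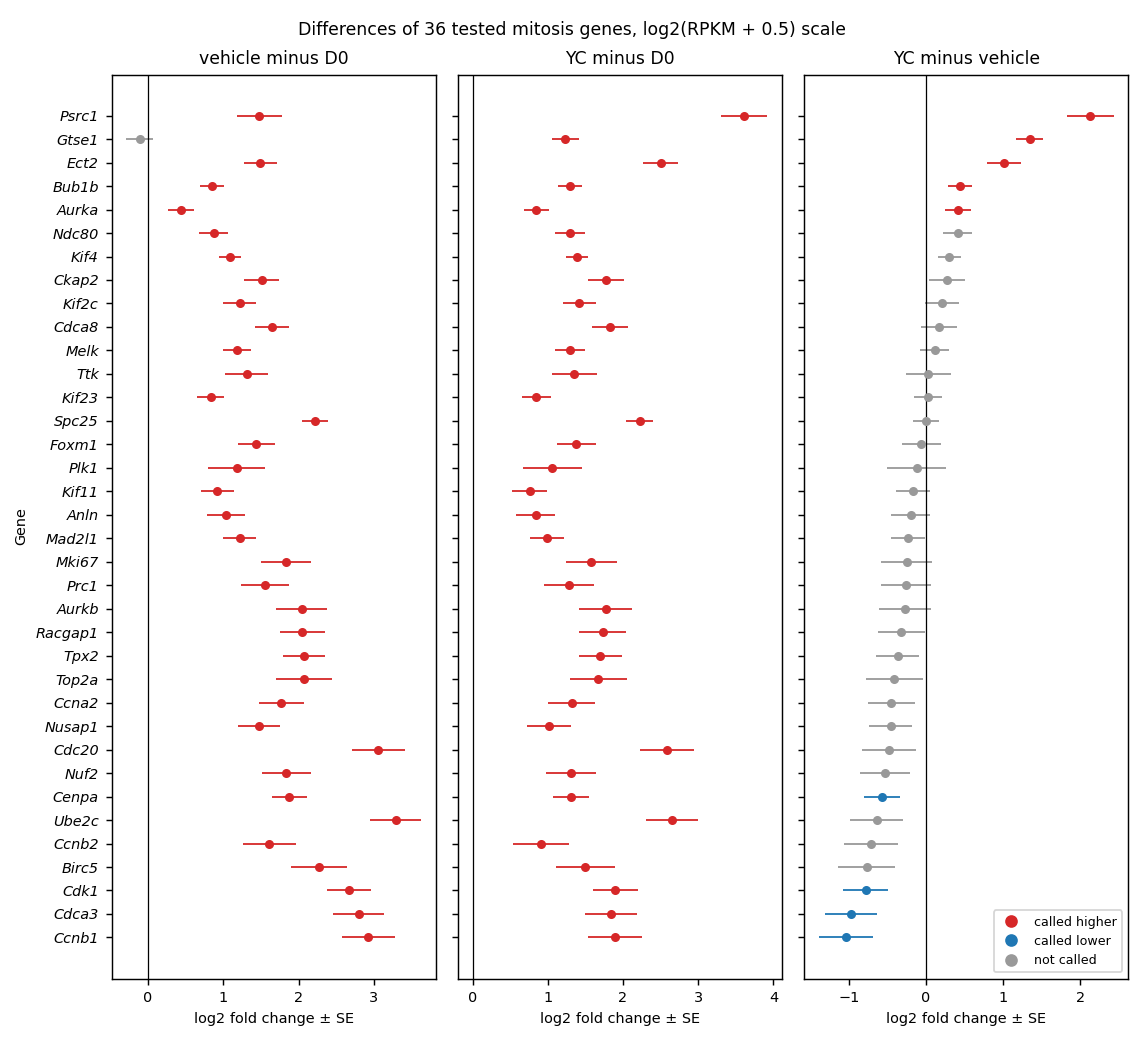
Log2 fold change ± SE (limma, log2(RPKM + 0.5) scale) of the 36 tested mitosis genes in 3 comparisons, sorted by the difference between YC and vehicle livers, with genes called higher in red, lower in blue and not called in grey. All but Gtse1 lie to the right of 0 in the first panel, and in the third panel most genes lie near or left of 0 with Psrc1, Gtse1 and Ect2 apart at the top.

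Genes of entry into mitosis supplied 3 of the 4 members that were lower in YC livers. Cdk1 encodes the kinase that starts mitosis (mm10 chromosome 10, 69335146 to 69352938). Its lowest, median and highest values were 0.368, 0.524 and 0.77 RPKM in D0 livers, 3.51, 5.87 and 13.4 RPKM in vehicle livers and 1.84, 2.43 and 7.95 RPKM in YC livers. All vehicle and YC livers were above all D0 livers, while vehicle and YC livers overlapped. The log2 fold change was 2.67 ± 0.29 (SE) for vehicle against D0 livers (limma adjusted p = 1.26e-07), 1.90 ± 0.30 for YC against D0 livers (adjusted p = 1.53e-05) and -0.78 ± 0.29 for YC against vehicle livers (adjusted p = 0.0309).

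Ccnb1 encodes cyclin B1, the partner that activates Cdk1 (chromosome 13, 100778650 to 100786570). It spanned 0.118 to 0.352 RPKM in D0 livers (median 0.176), 1.87 to 12.3 RPKM in vehicle livers (median 5.16) and 0.701 to 5.62 RPKM in YC livers (median 1.5). Vehicle 2 and vehicle 3 were the 2 highest livers, and 4 YC livers (YC 1, 2, 6 and 7) were below the lowest vehicle liver. Against D0 livers Ccnb1 rose by 2.93 ± 0.35 in vehicle livers and by 1.89 ± 0.36 in YC livers (log2, SE), and between YC and vehicle livers the difference was -1.04 ± 0.35 (limma adjusted p = 0.0158), the lowest value of the members in that comparison.

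Cdca3, whose product helps degrade the mitosis inhibitor Wee1, had the highest mean level over all livers among the entry genes. It ran from 0.818 to 1.11 RPKM in D0 livers (median 0.863), from 4.44 to 26.3 RPKM in vehicle livers (median 8.52) and from 1.88 to 11.2 RPKM in YC livers (median 3.85). Vehicle 2 and vehicle 3, at 23.8 and 26.3 RPKM, stood far above the other vehicle livers, which reached 8.82 RPKM. The log2 difference between YC and vehicle livers was -0.97 ± 0.34 (SE, limma adjusted p = 0.0213), and the rise over D0 was 2.80 ± 0.34 with vehicle and 1.84 ± 0.35 with YC.

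Aurka, the kinase that matures centrosomes and helps to activate Plk1, was the most abundant member at day 0. It ranged from 3.11 to 5.61 RPKM in D0 livers (median 3.82), from 3.47 to 8.46 RPKM in vehicle livers (median 5.19) and from 5.63 to 9.52 RPKM in YC livers (median 7.39). D0 and vehicle livers overlapped, and the lowest YC liver was just above the highest D0 liver. Its rise over D0 was 0.44 ± 0.17 in vehicle livers (limma adjusted p = 0.0281) and 0.85 ± 0.17 in YC livers (adjusted p = 0.000267). Its difference between YC and vehicle livers, 0.41 ± 0.17 (adjusted p = 0.0479), was not called with median-ratio scaling (0.08) or quantile normalization (0.02). Its call against D0 in vehicle livers was lost without D0 1, D0 5, D0 6, vehicle 2, vehicle 3 or vehicle 7 (0.35 to 0.42).

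Of the other entry genes, Foxm1, Ccna2, Ccnb2, Plk1 and Melk, none was called between YC and vehicle livers as deposited. Their log2 differences ran from -0.71 ± 0.35 (Ccnb2, the second B-type cyclin) to 0.11 ± 0.19 (Melk, a kinase of dividing cells). Ccnb2 was called lower with median-ratio scaling (-1.0) and quantile normalization (-1.09), and Ccna2 with quantile normalization only (-0.84). Foxm1, the transcription factor that drives many of these genes, averaged 0.0876 ± 0.0509 RPKM at day 0, 1.15 ± 0.496 RPKM with vehicle and 1.26 ± 0.994 RPKM with YC (SD over 7, 8 and 7 livers), a difference of -0.06 ± 0.25 (SE) between YC and vehicle. Plk1, the kinase that acts from entry to exit, had 1.18 ± 0.38 and 1.06 ± 0.39 against D0 in vehicle and YC livers. In YC livers against D0, Plk1 lost its call when YC 3, YC 4 or YC 5 was left out (0.96, 0.86 and 0.85), and Ccnb2 lost its call in 9 such fits, those without D0 1, 3, 4, 5 or 7 or without YC 2, 3, 4 or 5.

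The proliferation marker Mki67, whose protein coats mitotic chromosomes (chromosome 7, 135689784 to 135716361), was not called between YC and vehicle livers. Its lowest, median and highest values were 0.0634, 0.129 and 0.235 RPKM in D0 livers, 0.723, 1.53 and 4.31 RPKM in vehicle livers and 0.382, 0.858 and 4.97 RPKM in YC livers. Every vehicle and YC liver was above every D0 liver, and the highest value of all was in YC 5. The log2 fold change was 1.83 ± 0.33 with vehicle (limma adjusted p = 6.18e-05) and 1.58 ± 0.34 with YC (adjusted p = 0.000427) over D0, and -0.25 ± 0.33 between YC and vehicle livers (adjusted p = 0.547).

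Top2a encodes the topoisomerase that untangles sister chromosomes. It spanned 0.134 to 0.468 RPKM in D0 livers (median 0.31), 1.3 to 6.35 RPKM in vehicle livers (median 2.51) and 0.477 to 7.85 RPKM in YC livers (median 1.15). The 7 YC livers fell on both sides of the vehicle median, with YC 3, YC 4 and YC 5 above it and the others below the lowest vehicle liver. YC and vehicle livers differed by a log2 value of -0.41 ± 0.37 (SE, limma adjusted p = 0.368).

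At the centromere and kinetochore, where chromosomes attach to the spindle, Cenpa and Spc25 behaved differently. Cenpa, the histone H3 variant that marks centromeres, had 1.57, 2.41 and 2.56 RPKM as lowest, median and highest values in D0 livers, 5.48, 9.0 and 18.2 RPKM in vehicle livers and 4.68, 4.84 and 10.4 RPKM in YC livers. The 4 YC livers 1, 2, 6 and 7 lay within 4.68 to 4.84 RPKM, below every vehicle liver. The log2 difference was -0.57 ± 0.23 between YC and vehicle livers (SE, limma adjusted p = 0.0395) and 1.88 ± 0.23 between vehicle and D0 livers.

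Spc25, a subunit of the Ndc80 complex that holds microtubules, was the most abundant member of its group. It lay between 1.71 and 3.36 RPKM in D0 livers (median 2.6), 9.0 and 23.8 RPKM in vehicle livers (median 13.1) and 10.1 and 19.0 RPKM in YC livers (median 13.6). Its rise over D0 was 2.22 ± 0.17 with vehicle and 2.22 ± 0.18 with YC (limma adjusted p = 6.39e-10 and 5.17e-10), and YC and vehicle livers differed by a log2 value of 0.00 ± 0.17 (adjusted p = 0.997). The highest YC liver was YC 7, which was the lowest YC liver for 30 of the 40 members. Of the partners in the same complex, Nuf2 had -0.53 ± 0.32 and Ndc80 0.41 ± 0.19 between YC and vehicle livers, neither called as deposited. Nuf2 was called lower with quantile normalization (-0.88).

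Among genes of the spindle checkpoint, which delays anaphase until all chromosomes are attached, Bub1b was higher in YC livers. It ranged from 0.307 to 0.514 RPKM in D0 livers (median 0.33), from 0.673 to 1.75 RPKM in vehicle livers (median 1.09) and from 0.932 to 2.67 RPKM in YC livers (median 1.46). YC and vehicle livers differed by a log2 value of 0.44 ± 0.16 (SE, limma adjusted p = 0.0224), and the call was absent with median-ratio scaling (0.20) or quantile normalization (0.11). Mad2l1, which encodes the protein that holds back the anaphase activator Cdc20, was the most abundant checkpoint gene, with a span of 1.78 to 3.5 RPKM in D0 livers (median 3.02), 4.28 to 12.9 RPKM in vehicle livers (median 6.97) and 4.28 to 9.35 RPKM in YC livers (median 5.53). Its difference was -0.23 ± 0.22 (adjusted p = 0.387) as deposited and was called lower with both scalings (-0.55 and -0.63). Its highest YC livers were YC 7 and YC 5.

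The chromosomal passenger complex, which corrects wrong attachments and steers cytokinesis, had no called member between YC and vehicle livers. Birc5, or survivin, was its most abundant member, at 0.382 to 1.02 RPKM in D0 livers (median 0.624), 1.75 to 12 RPKM in vehicle livers (median 4.69) and 0.665 to 7.58 RPKM in YC livers (median 2.27). YC 6 and YC 7 were inside the D0 range and YC 5 was above all vehicle livers but vehicle 2 and vehicle 3. Its difference between YC and vehicle livers was -0.77 ± 0.37 (SE, limma adjusted p = 0.088), and it was called lower with both scalings (-1.05 and -1.15). Its partners Aurkb, the kinase of the complex, and Cdca8, or borealin, had differences of -0.27 ± 0.34 and 0.17 ± 0.23.

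Psrc1 and Gtse1 had the largest and second largest log2 differences of the tested members between YC and vehicle livers. Both belong to the spindle assembly group, where 2 of 8 tested members were called higher and 6 were not called. Of all genes tested 44.6% were called higher. Psrc1 encodes a microtubule-binding protein of the mitotic spindle and is known as a gene that p53 can induce (chromosome 3, 108383839 to 108388231). Its D0 livers lay between 0.135 and 0.658 RPKM (median 0.251) and its vehicle livers between 0.752 and 4.16 RPKM (median 1.6). In YC livers 1 to 7 it was 17.9, 17.2, 6.9, 4.16, 8.1, 10.9 and 11.8 RPKM. YC 4 and vehicle 3 met at 4.16 RPKM, and the other 6 YC livers were above every vehicle liver. Psrc1 was 4.37-fold higher in YC than in vehicle livers (log2 2.13 ± 0.30, SE, limma adjusted p = 7.08e-06), 12.2-fold above D0 in YC livers (3.61 ± 0.31, adjusted p = 1.52e-09) and 2.79-fold above D0 in vehicle livers (1.48 ± 0.30, adjusted p = 0.00019), on the log2(RPKM + 0.5) scale. It had the largest log2 fold change of the tested members in both comparisons with YC livers.

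Gtse1 encodes a microtubule-binding protein of G2 and S phase that restrains p53 and is also known as a p53-inducible gene (chromosome 15, 85859745 to 85876573). It was the one tested member that did not rise in vehicle livers. Its values were 1.23 to 2.04 RPKM in D0 livers (median 1.67), 0.592 to 2.45 RPKM in vehicle livers (median 1.39) and 2.71 to 5.53 RPKM in YC livers (median 4.84). All 7 YC livers were above all D0 and all vehicle livers, and Gtse1 was the only member whose YC and vehicle livers did not overlap, which held for 6.52% of all genes tested in that direction and for 0.558% in the other. The difference was -0.11 ± 0.18 between vehicle and D0 livers (SE, limma adjusted p = 0.606), 1.34 ± 0.18 between YC and vehicle livers (adjusted p = 3.55e-06, 2.54-fold) and 1.23 ± 0.18 between YC and D0 livers (adjusted p = 4.95e-06).

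Kif11, the motor that pushes spindle poles apart, had the smallest log2 fold change over D0 of the tested members in YC livers as deposited. The rank depended on the scale, since Aurka was below it with median-ratio scaling (0.53 against 0.55) and was the lowest with a pseudocount of 0.1 (0.91). It spanned 0.303 to 0.543 RPKM in D0 livers (median 0.499), 0.694 to 2.5 RPKM in vehicle livers (median 1.22) and 0.589 to 2.42 RPKM in YC livers (median 0.786). The rise was 0.92 ± 0.22 with vehicle and 0.76 ± 0.23 with YC (limma adjusted p = 0.00757), and the latter was 0.21 and not called with quantile normalization (adjusted p = 0.434). The other spindle members, Tpx2, Kif2c, Kif4, Nusap1 and Ckap2, all rose over D0 in both groups. Their differences between YC and vehicle livers ran from -0.46 ± 0.28 (Nusap1, which bundles microtubules) to 0.30 ± 0.15 (Kif4, a chromosome-bound motor), none called as deposited. Nusap1 was called lower with median-ratio scaling (-0.71) and quantile normalization (-0.84), and Tpx2 with quantile normalization only (-0.76).

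Of the 2 genes of anaphase and mitotic exit, Ube2c, the enzyme that feeds ubiquitin to the anaphase-promoting complex, had the largest log2 fold change over D0 of the members in vehicle livers in 35 of the 36 fits. The exception was a pseudocount of 0.1, where Ccnb1 had 4.01 and Ube2c 3.79. It went from 0.397 to 1.2 RPKM in D0 livers (median 0.795) to 5.42 to 33.1 RPKM in vehicle livers (median 10.2) and 3.92 to 15.3 RPKM in YC livers (median 6.5). Vehicle 2 and vehicle 3 again stood apart at 33.1 and 31.2 RPKM. On the log2(RPKM + 0.5) scale, Ube2c was 9.79-fold above D0 in vehicle livers (log2 3.29 ± 0.34, SE, limma adjusted p = 6.66e-08). On the same scale it was 6.28-fold above D0 in YC livers (2.65 ± 0.35, limma adjusted p = 1.48e-06). Its mean RPKM was 0.807 in D0, 14.8 in vehicle and 8.56 in YC livers. Between YC and vehicle livers the difference was -0.64 ± 0.34 (adjusted p = 0.121), called lower with both scalings (-0.97 and -0.96). Cdc20, the activator of the anaphase-promoting complex, rose by 3.06 ± 0.35 and 2.58 ± 0.36 over D0 in vehicle and YC livers, with -0.48 ± 0.35 between these.

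In the central spindle and cytokinesis group, Ect2 was higher in YC livers. It encodes the exchange factor that switches on RhoA at the cleavage furrow (chromosome 3, 27097222 to 27153878). It spanned 0.277 to 0.528 RPKM in D0 livers (median 0.362), 0.942 to 3.8 RPKM in vehicle livers (median 1.84) and 3.24 to 5.87 RPKM in YC livers (median 4.61). Vehicle 1, vehicle 2 and vehicle 3, at 3.74, 3.45 and 3.8 RPKM, reached into the YC range. On the log2(RPKM + 0.5) scale, YC and vehicle livers differed by 1.01 ± 0.22 (SE, limma adjusted p = 0.00078, 2.02-fold). Ect2 rose over D0 by 1.49 ± 0.22 with vehicle and 2.50 ± 0.23 with YC. Its partner Racgap1, which recruits Ect2 to the spindle midzone, had -0.32 ± 0.30 between YC and vehicle livers, and Prc1, Kif23 and Anln had -0.26 ± 0.32, 0.02 ± 0.18 and -0.20 ± 0.25, none called.

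**Figure D3:**
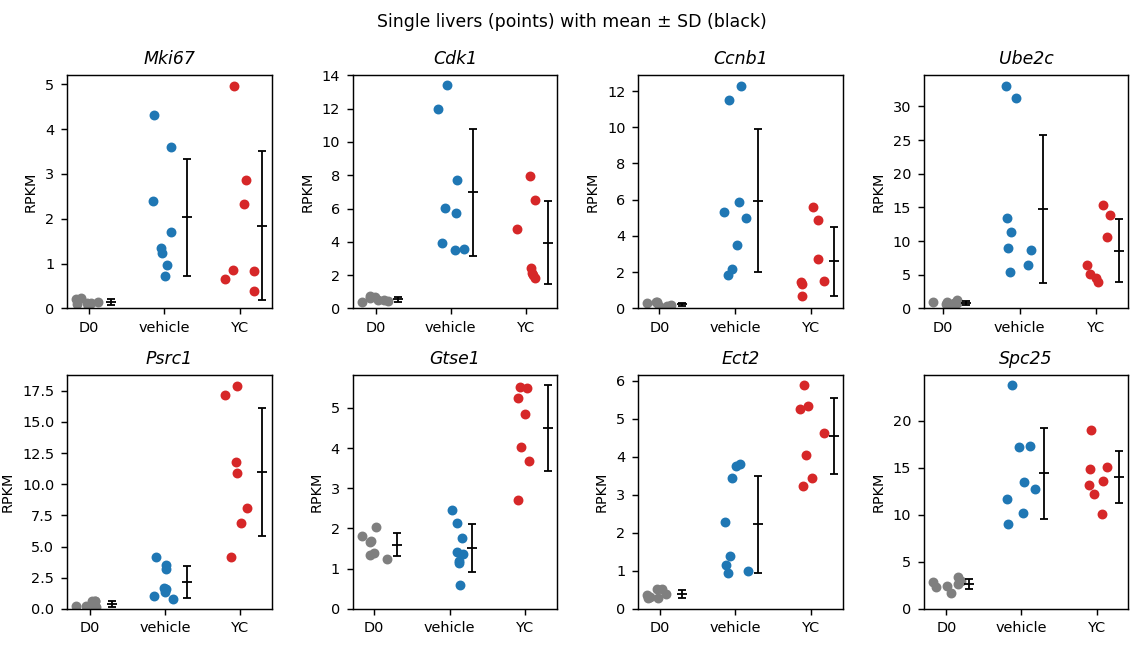
RPKM of 8 mitosis genes in single livers (points, spread sideways for display) of the D0, vehicle and YC groups, with the mean ± SD in black and each axis starting at 0. For Gtse1 all YC livers (2.71 to 5.53 RPKM) lie above all vehicle livers (up to 2.45 RPKM). For Cdk1 and Ccnb1 the livers YC 1, 2, 6 and 7 lie below every vehicle liver, and 2 vehicle livers lie far above the rest.

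The calls between YC and vehicle livers differed in how far they held. Psrc1, Gtse1 and Ect2 were called in each of the 36 fits run, which covered other scalings, pseudocounts and filters, a replicate block and each library left out in turn, with log2 differences of 1.80 to 2.49, 1.01 to 1.58 and 0.65 to 1.18. Ccnb1 was called in 34 of 36, Cdca3 in 32, Cdk1 in 27, Bub1b in 26, Cenpa in 24 and Aurka in 13. The fit of all 3 groups uses 1 shared estimate of spread per gene, so the spread of D0 livers enters these p-values. With only the YC and vehicle livers fitted, Psrc1, Gtse1, Ect2 and Ccnb1 kept their calls. Cdk1, Cdca3, Cenpa, Bub1b and Aurka lost theirs. Without the libraries labelled YC 6 and YC 7, no member was called lower in YC livers, also at an unadjusted p under 0.05 (limma), against 7.2% of all genes tested. Ccnb1 and Cdca3 still had log2 differences of -0.73 and -0.65 there, from fewer livers. In the same fit 5 members were called higher (Psrc1, Gtse1, Ect2, Bub1b and Ndc80, against 44.1%). Left out singly, YC 7 ended the call of Cdca3 (-0.78), and each of vehicle 2, vehicle 3, YC 1, YC 2, YC 6 and YC 7 ended those of Cdk1 (-0.63 to -0.71) and Cenpa (-0.45 to -0.51). Cenpa also lost its call without vehicle 4 (-0.55) or vehicle 8 (-0.57), and Bub1b without vehicle 4, YC 4 or YC 5 (0.38, 0.37 and 0.34). Aurka kept its call only without D0 3, vehicle 2, 3, 6 or 7 or YC 3, 4 or 7, and was 0.33 to 0.41 in the other 14 fits. The count of lower members was 2 without YC 1, YC 2, YC 6, vehicle 2 or vehicle 3, 1 without YC 7 and 7 without YC 5, and the count of higher members was 3 without YC 5 or vehicle 4.

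The presence of Y-linked transcripts split the YC group, and the count of members called lower differed between the parts. With YC 1, YC 2 and YC 3 alone against the vehicle livers, all of which hold such transcripts, 3 members were higher (41.8% of all genes tested) and 5 lower (Cdca3, Cenpa, Ccnb1, Cdk1 and Nusap1, against 7.34%). With YC 4 to YC 7 alone, none was called lower at an adjusted or unadjusted p under 0.05 in limma (3.37% of all genes) and 3 were higher (31.2%), a setting added once the data had been seen. Ccnb1 and Cdca3 still had log2 differences of -0.88 and -0.84 there, against -1.27 and -1.14 with YC 1, YC 2 and YC 3. The members higher in both settings were Psrc1, Gtse1 and Ect2. Of the 36 members 34 were higher in YC 4 to YC 7 than in D0 livers (33.5% of all genes), where neither group holds Y-linked transcripts, and 31 were higher in YC 1, YC 2 and YC 3 than in D0 livers (40%).

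In vehicle and YC livers the median spread of the mitosis genes between livers of a group was above that of all genes tested. The highest liver exceeded the lowest by 2.44 to 9.37 times over the 40 members in the vehicle group (median 5.325, against 2.13 over all genes tested) and by 1.5 to 16.9 times in the YC group (median 5.535, against 2.08). In D0 livers it did so by 1.36 to 8.53 times (median 2.855, against 1.71). On the log2(RPKM + 0.5) scale the median SD over the 36 tested members was 0.62 with vehicle and 0.76 with YC, against 0.31 and 0.33 over all genes, and 0.20 against 0.23 at day 0, where most members lay below the 0.5 added and the scale compresses their spread. In the vehicle and YC groups, most members as deposited shared their highest and their lowest liver. Vehicle 2 was the highest vehicle liver for 28 of the 40 members (70.0%), against 9.75% of all genes tested, and vehicle 5 the lowest for 32 (80.0%, against 9.13%). YC 5 was the highest YC liver for 33 members (82.5%, against 17.7%), or 20 with median-ratio scaling (against 9.89%), and YC 7 the lowest for 30 (75.0%, against 22.7%).

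In the YC group 3 livers, YC 3, YC 4 and YC 5, were all above the other 4 for 29 of the 40 members (72.5%), against 12.1% of all genes tested. With median-ratio scaling this held for 31 members (77.5%, against 15.0%). These 3 livers were also the YC livers with the highest Fah, at 290, 407 and 291 RPKM, and their mean log2 level over the members was 1.66, 1.92 and 2.31, against 1.15, 1.11, 1.05 and 0.74 in YC 1, 2, 6 and 7. The part of the Fah-expressing cells in these levels was not tested. The 11 members that did not follow this order were Aurka, Ndc80, Spc25, Mad2l1, Kif2c, Kif4, Ckap2, Gtse1, Psrc1, Kif20a and Ect2. Psrc1 had the opposite order, with 4.16 to 8.1 RPKM in YC 3, 4 and 5 and 10.9 to 17.9 RPKM in the others. The split was described after the values were seen and has no test.

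**Figure D4:**
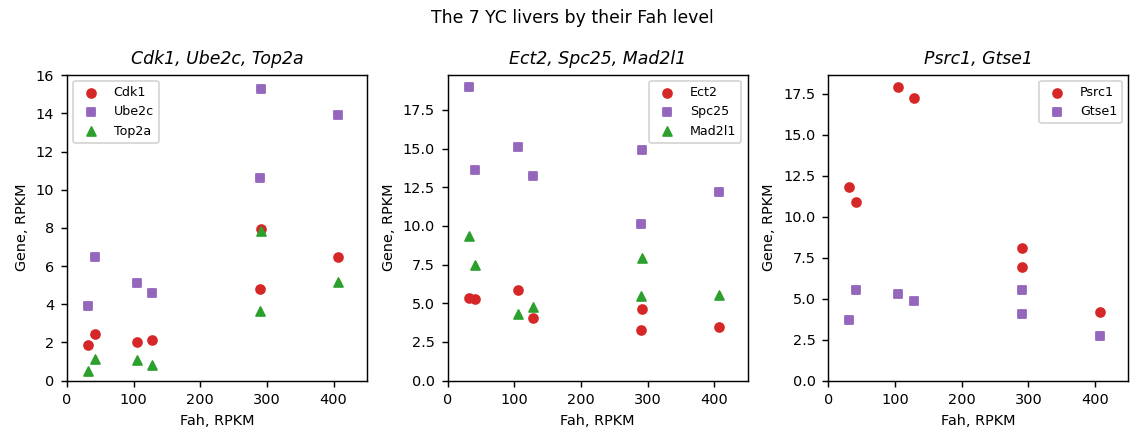
RPKM of 8 mitosis genes (vertical axes from 0) against RPKM of Fah (horizontal axes) in the 7 YC livers. Cdk1, Ube2c and Top2a are highest in the 3 livers with Fah at 290 RPKM or more, Psrc1 is lowest in those livers, and Ect2, Spc25, Mad2l1 and Gtse1 show neither order throughout.

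Other genes of cell division were counted from 7 lists with 172 genes, none of them members. The counts depended on the scale, with 44.6% of all genes called higher and 6.14% lower as deposited and 18.2% and 16.7% with median-ratio scaling. Of 21 tested genes of the spindle and cytokinesis 2 were higher with YC than with vehicle (Incenp, the scaffold of the passenger complex, and the motor Kif20b) and 1 lower (Knstrn, a spindle protein), and 0 and 2 with median-ratio scaling. This list rose over D0 much as the members did, with 19 of 21 called higher in each of vehicle and YC livers and none lower in limma, also none at an unadjusted p under 0.05. Of 28 kinetochore and centromere genes 9 were higher and 1 lower (3 and 3 with median-ratio scaling), with Cenpt, which links centromeric chromatin to the Ndc80 complex, at 5.72 ± 2.28 RPKM in YC and 2.14 ± 0.523 RPKM in vehicle livers (SD) and Spc24, the partner of Spc25, at 14.5 ± 8.47 and 22.3 ± 8.96 RPKM. The call of Spc24 (-0.72) was lost without YC 6 and YC 7 (-0.57), as was that of Knstrn (-0.68 and -0.42).

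Of 17 further regulators of mitotic entry 9 were higher and none lower in limma, also none at an unadjusted p under 0.05, and these counts were 3 and 0 with median-ratio scaling and 3 and 1 with quantile normalization. Cdc25a, a phosphatase that activates cyclin-dependent kinases, averaged 6.43 ± 1.6 RPKM with YC and 2.61 ± 0.47 RPKM with vehicle (SD), a log2 difference of 1.13 ± 0.15 (SE, limma adjusted p = 3.69e-06). Of the genes for the complex that controls many mitosis genes, a few are named after their values were seen. Lin9, Lin37, Rbl1 and Rbl2 are not given, so the genes named do not stand for the whole complex, and its part in these data was not tested. Mybl2 (B-Myb) was higher in YC than in vehicle livers by 0.74 ± 0.18 (limma adjusted p = 0.00199). Lin52 and Lin54, MuvB subunits, were lower in vehicle than in D0 livers by -1.10 ± 0.16 and -0.87 ± 0.14 and higher in YC than in vehicle livers by 0.44 ± 0.16 and 0.37 ± 0.14, the latter values being 0.12 and 0.10 and not called with median-ratio scaling, nor without YC 6 and YC 7 (0.38 and 0.23).

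Of 17 genes of condensin, cohesin and separase 6 were higher and none lower in limma, also none at an unadjusted p under 0.05 (1 and 0 with median-ratio scaling), with Esco2, which acetylates cohesin, at 1.33 ± 0.26 (SE). Of 17 genes of the anaphase-promoting complex 8 were higher and 1 lower (2 and 4), with Anapc7 at 0.62 ± 0.10 and Anapc13 at -0.80 ± 0.21. Of 34 DNA replication genes 9 were higher and 3 lower (4 and 7), with Mcm2, a subunit of the replicative helicase, at 1.33 ± 0.19 and Mcm10, which helps to start that helicase, at -0.85 ± 0.24. Of 20 brakes on the cell cycle 10 were higher and 2 lower (7 and 5), with the kinase inhibitor Cdkn2b at 2.10 ± 0.22 and its relative Cdkn2c at -0.72 ± 0.23, the latter not called without YC 6 and YC 7 (-0.48). Cdkn1a, the p53-inducible kinase inhibitor p21, is given after its value was seen: it averaged 64.6 ± 24.1 RPKM in D0, 27.8 ± 7.65 RPKM in vehicle and 94.8 ± 42.5 RPKM in YC livers (SD). Most other brakes are not given singly. The part of p53 in the levels of Cdkn1a, Psrc1 and Gtse1 was not tested.

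Against D0, 20 of the 34 replication genes were higher and 3 lower in vehicle livers, and 20 and 0 in YC livers. For the kinetochore list these counts were 19 and 2 in vehicle and 24 and 1 in YC livers, and for condensin and cohesin 7 and 3, and 10 and 0. They were 5 and 4, and 7 and 0, for the anaphase-promoting complex, 8 and 4, and 9 and 2, for the entry regulators, and 6 and 7, and 7 and 1, for the brakes. With median-ratio scaling the counts for YC livers over D0 were 18 higher and 1 lower for replication, 18 and 1 for the kinetochore list (13 and 1 with quantile normalization), 8 and 3 for condensin and cohesin, 4 and 2 for the anaphase-promoting complex, 9 and 2 for the entry regulators and 4 and 5 for the brakes, whose balance turned. The background shares of these counts are those of the members' comparisons with D0.

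Markers of other cells that can divide in liver moved between the groups as well. Their counts between YC and vehicle livers are read against the 44.6% of all genes called higher and 6.14% called lower as deposited. For counts between vehicle and D0 livers these shares are 28.2% higher and 29.9% lower. Hepatocyte markers were abundant in all livers, with 10 genes summing to 49890 to 66173 RPKM in D0, 61721 to 92062 RPKM in vehicle and 33893 to 60495 RPKM in YC livers. The sums of vehicle and YC livers did not overlap as deposited. Of the 10 markers 1 was higher and 5 were lower with YC than with vehicle. These counts were 0 and 5 with median-ratio scaling and 1 and 2 with quantile normalization. Precursors of neutrophils had 6 of 8 tested markers higher and none lower in YC than in vehicle livers (limma, also none at an unadjusted p under 0.05), and 10 genes summed to 6.1 to 11.9 RPKM in D0, 10.9 to 51.3 RPKM in vehicle and 29.9 to 178 RPKM in YC livers. Lymphocyte markers had 6 of 9 lower and none higher in YC than in vehicle livers (limma, also none at an unadjusted p under 0.05), with sums of 5.27 to 11.7, 6.98 to 34.1 and 4.27 to 9.96 RPKM in D0, vehicle and YC livers. Macrophage markers had 9 of 10 higher in vehicle than in D0 livers, with sums of 160 to 310 RPKM in D0, 616 to 1818 RPKM in vehicle and 417 to 1149 RPKM in YC livers. Stellate cell markers had 6 of 10 higher and 1 lower in vehicle than in D0 livers and 4 higher in YC than in vehicle livers, and bile duct markers 5 of 8 higher and 1 lower and then 2 of 8 higher. With median-ratio scaling the counts between YC and vehicle livers were 1 higher and 1 lower for stellate cells and 0 and 0 for bile duct. Between YC and vehicle livers 1 of 10 macrophage markers was lower, 1 of 10 sinusoidal endothelium markers was higher and 2 were lower, and of 4 tested erythroid markers 1 was higher and 1 lower. With median-ratio scaling 5 macrophage markers and 6 endothelial markers were lower, and without YC 6 and YC 7 as deposited 5 macrophage markers were lower. No marker was listed at 0 in all livers of a group, and the part of these cells in the levels of the mitosis genes was not tested.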

How the data were processed

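Total RNA from frozen mouse liver was poly(A)-selected, fragmented and sequenced, per the labels' protocols. The authors deposited RPKM values for 18716 rows in 22 libraries (7 D0, 8 vehicle and 7 YC), with no pooled column. Per the submitters' processing notes, the tools were TopHat 1.4.1 and Cufflinks 1.3.0 and the build mm10. Which tool made the values, the annotation and the filters are not stated in the sources used here.

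The 12537 genes that reached 0.5 RPKM in 7 or more libraries were fitted as log2(RPKM + 0.5) with limma 3.58.1 (trend and robust eBayes, statmod 1.5.0, R 4.3.3), all 22 libraries in 1 model of 3 groups, two-sided, with Benjamini-Hochberg adjustment over all genes tested and a threshold of 0.05. Fold changes on this scale understate the change of low genes. The fit was tested on simulated data. Other steps used Python 3.11.15 with pandas 2.3.3 and matplotlib 3.10.9.

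Steps between low values gave estimated depths of 51200000 to 66200000 in D0, 51200000 to 72000000 in vehicle and 50300000 to 82600000 in YC libraries, but only 90 of 280 genes checked (32.1%) were whole multiples in every library at a tolerance of 0.05, so no count test was run and precision rests on the spread between livers. Positions come from GENCODE M21 on GRCm38, the assembly of mm10.

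The members, the role groups and the other lists were chosen with earlier results of these data known. Values are given for Mki67, Top2a, Cdk1 and Ccnb1, the members called between YC and vehicle livers, the most abundant member of each of 8 roles and the largest and smallest change of each comparison. From each other list, the called gene with the smallest adjusted p in each direction is named. Cdkn1a, Mybl2, Lin52, Lin54 and Kif20b were named after their values were seen. The alternatives were other scalings (median-ratio, quantile), pseudocounts and filters, array weights, the 2 groups alone, a replicate block and libraries left out.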

Additional observations from a re-analysis of the deposited data

Results flagged for a closer look

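In 8 of the 120 groups of livers checked (40 members in 3 groups), the highest or lowest liver lay far from the nearest other by Dixon's criterion, which chance meets in about 1 in 20 groups. In vehicle livers, Foxm1 was 2.23 RPKM in vehicle 2 against 1.3 RPKM in the next highest liver, and Kif20a, a motor of cytokinesis, was 0.938 RPKM in vehicle 1 against 0.457 RPKM. In YC livers, Kif2c, a motor that removes wrong microtubule attachments, was 3.0 RPKM in YC 5 against 1.64 RPKM.

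The other 5 were in D0 livers. Aurka was 5.61 RPKM in D0 3 against 4.07 RPKM in the next, Cdc20 was 1.1 RPKM in D0 4 against 0.684 RPKM, and Cenpa was lowest in D0 1, at 1.57 RPKM against 2.16 RPKM. In D0 2, Nuf2 was 0.357 RPKM against 0.202 RPKM and Kif23, a motor of the central spindle, was 0.401 RPKM against 0.213 RPKM.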

How the results depend on the processing

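Against D0, the counts of members higher (35 with vehicle and 36 with YC) ran from 28 to 38 and from 29 to 39 over the alternatives, lowest where genes with a mean under 1 RPKM were left out, so that fewer were tested, and for YC also with quantile normalization. In the limma fits run, 0 members were lower than in D0 livers. With each library left out in turn they were 34 to 35 and 34 to 36, with 0 to 0 lower. Between YC and vehicle livers 5 members were higher and 4 lower, and these counts ran from 3 to 7 and from 1 to 7 with each library left out. Members higher numbered 3 with median-ratio scaling, quantile normalization, the 2 groups alone, a replicate block, and with either the YC livers that lack or those that hold Y-linked transcripts left out, the last chosen after seeing the data. Members called lower numbered 9 with median-ratio scaling, 12 with quantile normalization, 1 (Ccnb1) with the 2 groups alone, 0 without YC 6 and YC 7 and 0 without the YC livers that hold Y-linked transcripts, both 0 also at an unadjusted p under 0.05 in limma. Why these counts moved was not tested. Left-out libraries also added calls: Ccnb2 (vehicle 5, YC 5), Birc5 (vehicle 5, YC 4, YC 5) and Nuf2 (YC 5) lower, and Ndc80 (vehicle 1, 2, 3, YC 7) and Kif4 (vehicle 1, 2) higher.

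Replicate numbers are shared by the groups, but paired libraries did not deviate together (same-number correlations -0.39 to 0.21 between vehicle and YC, -0.22 to 0.23 between D0 and vehicle and -0.12 to 0.11 between D0 and YC). With the replicate block 3 members were higher and 4 lower between YC and vehicle livers, and 35 and 36 higher over D0. The median log2 fold change of the members over D0 depended on the pseudocount: with vehicle it was 2.16 at 0.1 and 1.19 at 1.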
